A study of Mus musculus with 9 samples.

Results

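The lincRNAs described here are 107 genes typed as long intergenic noncoding RNAs, of which 79 lay above the median level of all tested genes in these mouse livers. They were selected on their level: each is a row that the deposited table types as lincRNA and whose mean over all 9 liver libraries was at least 200 normalized counts. They are 107 of 2057 lincRNA rows among 37583 genes. A lincRNA is made by RNA polymerase II and is usually capped, spliced and polyadenylated, so selection for poly(A) RNA keeps most of them. Some act in the nucleus on chromatin or on bodies that gather splicing factors, some bind microRNAs, some are read from the opposite strand of a coding gene, and some carry small nucleolar RNAs (snoRNAs) in their introns. In hepatocytes glucagon acts through the receptor Gcgr, which raises cAMP, activates protein kinase A and leads to phosphorylation of CREB, a factor that binds the cAMP response element in promoters.

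Liver of 9 male C57Bl6 mice aged 16 to 20 weeks was sequenced after a fast of 6 h, in 3 groups of 3. Knockout-labelled mice carried the label Gcgr-/- and were given PBS. Antibody-labelled mice carried the label Gcgr+/+ and, per the labels, received weekly intraperitoneal doses of 10 mg/kg of a humanized antibody against that receptor over 10 days. Wild-type mice carried the label Gcgr+/+ and were given PBS. All 9 mice were therefore injected, and each library came from a punch of whole liver, in which fewer cells of a type and less RNA per cell cannot be told apart. The study set both ways of interrupting hepatic glucagon signalling side by side because both are followed by growth of pancreatic alpha cells. Here the question is which of the well-expressed lincRNAs differed between the livers. Effects against wild type share the same 3 wild-type libraries and are given side by side.

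The targeted gene went against the labels. Gcgr stood at 27365, 19656 and 21129 normalized counts in the knockout-labelled libraries and at 2271, 2496 and 1808 in the antibody-labelled libraries, against 19547, 17565 and 18451 in wild type. Gcgr fell in the antibody-labelled libraries (adjusted p = 2.29e-06 by limma) and was not called in the libraries labelled Gcgr-/- (adjusted p = 0.434). Its mean was 0.118 of wild type in the antibody-labelled libraries, whose label gives an intact gene, and 1.23 of wild type in those labelled as knockout. The doubt covers both labels, since an exchange of the 2 would give this order, which was not tested. Every direction given for either labelled group, the 3 calls included, is that of the libraries as labelled. Estimated reads per library ran from 10.99 M (mega) in knockout-labelled library 1 to 30.1 M in a wild-type library. That shallow library held the highest or the lowest of the 9 values in 44.9% of the 107 lincRNAs and in 49.1% of all tested genes. Liver identity was plain from hepatocyte markers, which summed to between 1955000 and 3209000 normalized counts in knockout-labelled, 1939000 and 2116000 in antibody-labelled and 1978000 and 2363000 in wild-type libraries. Of 87 tested markers in 11 cell type lists, 0 passed limma's test in any contrast. At an unadjusted p under 0.05 there were 9 in knockout-labelled over wild type, 6 in antibody-labelled over wild type and 8 in antibody-labelled over knockout-labelled, beside 13.8%, 10.3% and 13.3% of all tested genes. Later unadjusted counts for lists follow that order of contrasts and stand beside the same shares. Markers of acinar and muscle cells were mostly at the floor, with 6 of 10 and 5 of 7 there in all libraries.

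By normalized counts, which also grow with transcript length, the 107 means ran from 207.7 to 9844, with a median of 474. There were 24 lincRNAs with a mean of at least 1000, 28 between 500 and 1000, and 55 under 500. The 8 highest together held 45.02% of all counts of the 107. The whole set took 0.209% to 0.265% of the normalized counts of a library and 79.7% of the signal of all lincRNA rows. All 107 passed the filter on low values, which asked for a value above the table's floor of 1 in at least 3 of the 9 libraries, and 106 of them were above the floor in every library. The exception was Gm16728, which lies opposite the coding gene Pgam5 and was listed at the floor in 1 library of each group. It read 328, 1 and 400 normalized counts in the knockout-labelled, 377, 382 and 1 in the antibody-labelled and 316, 1 and 340 in the wild-type libraries. Each group thus held 2 livers with a clear signal and another at the floor.

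**Figure D1:**
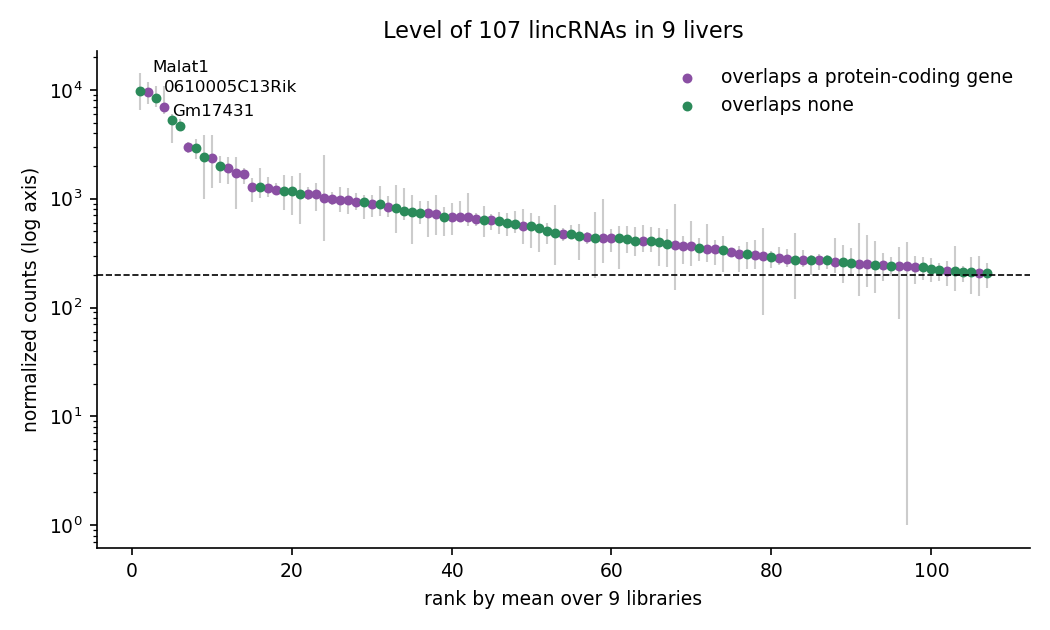
Mean normalized counts (log axis) of the 107 lincRNAs over 9 libraries, ranked from highest to lowest, with a grey line for each from its lowest to its highest library. Colours show whether the lincRNA overlaps a protein-coding gene on either strand, and the dashed line is the selection limit of 200. Malat1, 0610005C13Rik and Gm17431 lead, and the single line that reaches 1 is Gm16728.

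At the lower edge, A330023F24Rik (mean 212), 4933431E20Rik (mean 208) and A330035P11Rik (mean 207.7) were the last to be included. Gm17275 (mean 199.6), 4933439C10Rik (mean 199.5) and 4732463B04Rik (mean 198.04) were the first to be left out. For 98 of the 107 the mean of each group was at least 200. The other 9 reached the limit through the groups where they are high, and their differences between groups are part of how they were selected. They include Gm15408, Gm17569, Gm17491 and 4933431E20Rik, described with the contrasts.

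The set is less purely intergenic than its type says. By the table's coordinates in build mm9, 54 of the 107 overlapped a protein-coding gene, 52 of them one on the opposite strand and 7 one on the same strand, while 53 overlapped none. A head-to-head arrangement, with start sites within 1 kb of a coding gene that runs the other way, was found for 33. The later GENCODE M21 annotation lists 59 of the 107 identifiers. It types 19 of them as lincRNA, 17 as processed transcript, 11 as antisense, 2 as bidirectional-promoter RNA, 1 as a polymorphic pseudogene and 9 as protein-coding. Among the 9 are 1500011K16Rik, now Mtln, a microprotein of the inner mitochondrial membrane, and 2900053A13Rik, now Pet100, an assembly factor of cytochrome c oxidase. The labels do not state whether the libraries kept the strand. If they did not, reads of a lincRNA and of a gene on the opposite strand cannot be told apart where both lie, and the values of the 52 are uncertain in that sense. For the 7 that overlap a coding gene on the same strand, strand would not part the reads in either case. Per kilobase of exon, known for the 59, the mean levels ran from 17.98 to 2412 normalized counts per kb with a median of 246.8. On that length-corrected scale 2410006H16Rik led at 2412 per kb, ahead of C330006A16Rik at 1882 and 1700092C17Rik at 1809, followed by 9030622O22Rik at 1430, Malat1 at 1410 and Gm15441 at 1406.

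Malat1, the abundant nuclear RNA of speckles where splicing factors gather, had the highest mean of the set by counts. It read 6479, 14153 and 13016 normalized counts in the knockout-labelled, 6822, 10964 and 9832 in the antibody-labelled and 7342, 7919 and 12072 in the wild-type libraries. Each group spanned most of the range, so the groups overlapped throughout. Its log2 fold change was 0.26 (SE 0.32) in knockout-labelled and 0.02 (SE 0.32) in antibody-labelled against wild type, with adjusted p = 0.771 and 0.994 by limma. Neat1, the scaffold of paraspeckles that neighbours Malat1 and is typed differently in the table, varied more, with 11838, 34156 and 28050 normalized counts in knockout-labelled, 16877, 32101 and 12079 in antibody-labelled and 7754, 8903 and 20237 in wild-type libraries. Neither nuclear RNA separated the groups fully. For Neat1, unlike Malat1, wild-type libraries 1 and 2 lay under every labelled liver, and wild-type library 3 lay among them. Of 17 paraspeckle and 17 nuclear speckle proteins, 0 passed in any contrast by limma (at an unadjusted p under 0.05, 2, 0 and 2 of the first list and 3, 1 and 2 of the second).

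The next highest by counts were 0610005C13Rik and Gm17431. 0610005C13Rik lies opposite Bcat2, the mitochondrial transaminase of branched-chain amino acids. It read 9167, 7473 and 10781 normalized counts in knockout-labelled, 9753, 8487 and 7421 in antibody-labelled and 11673, 11063 and 10388 in wild-type libraries. All 3 antibody-labelled values lay under all 3 wild-type values, by 0.38 on the log2 scale (fold change -0.38, SE 0.15), which did not pass (limma, adjusted p = 0.362). Bcat2 stood at -0.40 in the same contrast (adjusted p = 0.323), and in knockout-labelled against wild type the lincRNA and Bcat2 were both at -0.29. Gm17431, whose locus on chromosome 5 overlaps only the pseudogene Gm15459 on the opposite strand, read 8892, 7467 and 7809 in knockout-labelled, 8358, 7011 and 7298 in antibody-labelled and 10759, 9124 and 9640 normalized counts in wild-type libraries. Both other groups lay wholly under wild type, at -0.29 and -0.38 on the log2 scale (SE 0.12 each), and neither difference passed (adjusted p = 0.295 and 0.192).

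None of the other 5 lincRNAs among the 8 highest means passed in a contrast by limma. Gm16724, a locus of 515207 bp on chromosome 17 that overlaps 7 coding genes, read 10814, 5958 and 6939 normalized counts in knockout-labelled, 6432, 6220 and 5963 in antibody-labelled and 7111, 5979 and 6489 in wild-type libraries. Its highest value stood in the shallow knockout-labelled library 1, and the other 8 libraries lay between 5958 and 7111. 1810058I24Rik read 3043, 2363 and 3472 normalized counts in knockout-labelled, 3535, 2378 and 2312 in antibody-labelled and 3443, 3025 and 2497 in wild-type libraries, with the groups overlapping throughout. 1700020I14Rik, known as Cyrano, an RNA that binds the microRNA miR-7 and leads to its decay, read 3222, 5370 and 4659 normalized counts in knockout-labelled, 5997, 5940 and 5356 in antibody-labelled and 5696, 5273 and 5902 in wild-type libraries. Its lowest value stood in the shallow knockout-labelled library 1, and no contrast passed (log2 fold change -0.38 in knockout-labelled and 0.04 in antibody-labelled against wild type). C330006A16Rik and Gm16762, which lies opposite the fatty acid activating enzyme Slc27a2, varied by 7.19% and 7.27% (coefficient of variation, CV, over 9 libraries). Those are among the lowest of the set, whose CVs ran from 5.56% in Gm17282 to 75.5% in Gm16728 with a median of 18.7%. Within groups the median CV of the 107 was 19.4% in knockout-labelled, 10.1% in antibody-labelled and 11.04% in wild-type libraries. Tug1, a nuclear RNA that shares a start region with Morc2a, read 1392, 2109 and 1934 normalized counts in knockout-labelled, 1823, 1943 and 2111 in antibody-labelled and 2477, 2137 and 2117 in wild-type libraries, and did not pass in any contrast. The same held for 6720401G13Rik, now Firre, an RNA of the X chromosome that brings together nuclear domains, which lay between 706 and 1605 normalized counts.

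In knockout-labelled against wild type, 0 of the 107 lincRNAs passed limma's test at an adjusted p under 0.05, where 0.155% of all tested genes passed. At an unadjusted p under 0.05 there were 28, of which 16 were higher and 12 lower, or 26.2% of the set beside 13.8% of all tested genes. Among all tested genes of a mean of at least 200 that share was 18.3%, and among the other 848 tested lincRNAs, which are lower in level, it was 8.25%. In 17 lincRNAs (15.9%) the 3 values of one group did not overlap the 3 of the other, beside 16.4% of all tested genes and 20.5% of those with a mean of at least 200. The median log2 fold change of the 107 was -0.02, beside -0.01 over all tested genes, and the extremes were -1.12 and 1.32. For 87 of the 107 the 95% interval of the fold change lay within a 2-fold change either way. Past 2-fold lay 4 of the 107, or 3.74%, beside 4.34% of all tested genes. They were Gm15408 and Gm17569 above wild type and 9030622O22Rik and RP23-342N19.2.1 under it, and the last 3 had wide spreads. 9030622O22Rik, which lies 2674 bp from the gene of the hepatocyte factor Foxa2, read 1159, 992 and 2465 normalized counts in knockout-labelled, 2410, 3370 and 1959 in antibody-labelled and 3282, 3862 and 2149 in wild-type libraries (knockout-labelled over wild type at -1.09 on the log2 scale, adjusted p = 0.253 by limma). Knockout-labelled library 3 lay among the wild-type values, and Foxa2 itself stood at 0.12 (adjusted p = 0.906). Gm17569 read 232, 309 and 360 normalized counts in knockout-labelled and 256, 267 and 236 in antibody-labelled libraries, against 338, 78.1 and 86.1 in wild type. Wild-type library 1 stood apart from the other 2 there, and the log2 fold changes of 1.16 and 0.94 over wild type did not pass (SE 0.47 each). Without that library both passed, where 4 and 117 of all tested genes did in those contrasts. That setting leaves out the wild-type liver that was not low. Gm17569 is in the set through the 2 labelled groups, so its passing is given as a description.

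In antibody-labelled against wild type, 3 of the 107 passed, or 2.8%, beside 1.34% of all tested genes and 1.82% of those with a mean of at least 200. Gm15408 rose, and Gm20419 and Gm16548 fell. Gm15408 is in the set through the groups where it is high, so the share of 2.8% rests in part on the selection. At an unadjusted p under 0.05 there were 22, with 7 higher and 15 lower, or 20.6% beside 10.3% of all tested genes and 12.7% of those with a mean of at least 200. Groups did not overlap in 28 (26.2%), beside 19.2% of all tested genes and 24.1% of those with a mean of at least 200. The median log2 fold change was -0.03, beside 0.00 over all genes, and the range ran from -1.43 to 1.43, with the 95% interval within 2-fold for 86. Of the set 2.8% lay past 2-fold, beside 4.17% of all tested genes. Past 2-fold, beside Gm15408 and Gm20419, stood 1500017E21Rik (now Hectd2os, opposite Hectd2), with 656, 856 and 813 normalized counts in knockout-labelled and 776, 407 and 827 in antibody-labelled libraries, against 1796, 2526 and 549 in wild type. Its antibody over wild type value was -1.08 on the log2 scale (SE 0.55, adjusted p = 0.604). Wild-type library 3 stood under the antibody-labelled median there, while the other 2 wild-type livers were higher than all livers of both labels. The count of 3 became 1 without antibody-labelled library 2 or without wild-type library 2, and 5 without knockout-labelled library 1 or without wild-type library 3. It was 11 with library weights, where 666 of all tested genes passed against 268 otherwise, and 1, Gm20419, without trend and robust estimation, where 71 did. With a filter above 10 it was 5.

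**Figure D2:**
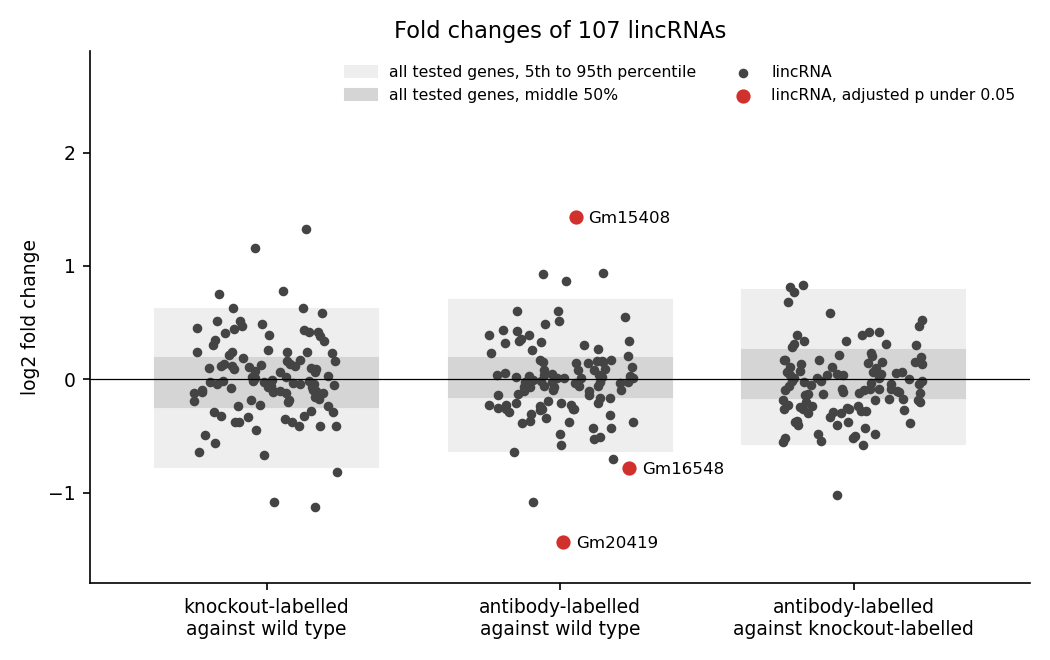
Log2 fold changes of the 107 lincRNAs in the 3 contrasts, with 1 dot per lincRNA spread sideways at random and grey boxes for the 5th to 95th percentile and the middle 50% of all tested genes. Red dots passed limma's test at an adjusted p under 0.05. Most dots lie within the grey boxes, and the red ones, Gm15408 at 1.43, Gm16548 at -0.78 and Gm20419 at -1.43, are all in antibody-labelled against wild type.

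Gm20419 fell furthest. It is a short locus of 590 bp on chromosome 17 (mm9, chr17:35617084-35617673, plus strand) in the major histocompatibility region, with no annotated gene overlapping it on either strand, and it lies between H2-Q10, a class I-like gene secreted by liver, and Pou5f1, a gene of pluripotent cells. It read 423, 482 and 470 normalized counts in the knockout-labelled libraries and 247, 185 and 251 in the antibody-labelled libraries, against 648, 467 and 749 in wild type. Every antibody-labelled value lay under every value of both other groups, while knockout-labelled and wild type overlapped. Relative to wild type the antibody-labelled group stood at a log2 fold change of -1.43 (SE 0.19, adjusted p = 0.00395 by limma), and adjusted p ranged from 0.000977 to 0.0434 over 19 alternative settings, all of them past the threshold. Against knockout-labelled it was at -1.02 (SE 0.19, adjusted p = 0.0544), and knockout-labelled against wild type was at -0.41 (adjusted p = 0.363). H2-Q10, which ends 5576 bp away on the same strand, stood at -0.22 in antibody-labelled against wild type (adjusted p = 0.706), and Pou5f1 was at or near the floor.

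Gm15408 rose most. It lies on chromosome 5 (mm9, chr5:149818538-149824352, plus strand) between Katnal1, a microtubule-severing subunit, and Hmgb1, a chromatin protein. It read 257, 279 and 484 normalized counts in the knockout-labelled and 287, 428 and 356 in the antibody-labelled libraries, against 138, 119 and 132 in wild type. All 6 livers with either label lay above all 3 wild-type livers, and it is in the set through those 2 groups, with means of 340.2 in knockout-labelled and 357 in antibody-labelled libraries, against 130 in wild type. Its difference from wild type is thus part of how it was selected, and its tests are given as a description. With antibody over wild type the log2 fold change was 1.43 (SE 0.24, adjusted p = 0.0129 by limma). With the knockout label over wild type it was 1.32 (SE 0.24), where adjusted p = 0.0624 missed the threshold, and 0.11 in antibody-labelled against knockout-labelled. The call against wild type was lost without antibody-labelled library 2 (adjusted p = 0.0713) and without wild-type library 2 (adjusted p = 0.0656), and over all alternatives adjusted p ran from 0.0019 to 0.0825. Katnal1 and Hmgb1 stood at 0.32 and 0.01 in the same contrast, and neither passed.

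A second lincRNA, Gm15411, overlaps Gm15408 on the opposite strand and was too low for the set. It read 30.0, 22.8 and 55.1 normalized counts in knockout-labelled and 213, 137 and 88.2 in antibody-labelled libraries, against 36.5, 34.1 and 24.3 in wild type, and rose in the antibody-labelled livers (log2 fold change 2.10 over wild type, SE 0.38, adjusted p = 0.0211 by limma). Gm15411 was thus high in the antibody-labelled livers, whereas Gm15408 was also above wild type in every knockout-labelled liver. Whether reads of the pair were told apart by strand is not given in the labels.

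The promoter of Gm15408, from the RefSeq window of 250 bases before to 50 after the start in GRCm38.p6 (chr5:149006712-149007011, plus strand), is shown because this is the gene that rose. Capitals mark its one hit among the motifs searched, the E-box CACGTG.
Gm15408: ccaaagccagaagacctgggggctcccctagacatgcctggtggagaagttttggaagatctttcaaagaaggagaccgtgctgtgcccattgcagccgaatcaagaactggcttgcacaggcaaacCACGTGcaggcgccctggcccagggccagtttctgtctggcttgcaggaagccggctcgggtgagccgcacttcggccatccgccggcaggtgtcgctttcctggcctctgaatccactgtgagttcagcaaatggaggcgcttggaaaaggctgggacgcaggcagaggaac
The window held no cAMP response element, whole (TGACGTCA) or in its short form (TGACG), on either strand.

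Gm16548, the other lincRNA that fell, runs opposite F5, the gene of coagulation factor V, a clotting protein made by hepatocytes. It lies on chromosome 1 (mm9, chr1:166078722-166082348, minus strand), its start is 379 bp from that of F5, and it also overlaps Selp, a platelet and endothelial adhesion gene. It read 306, 277 and 285 normalized counts in the knockout-labelled and 263, 274 and 268 in the antibody-labelled libraries, against 419, 588 and 399 in wild type. Both other groups lay under wild type with no overlap. With antibody over wild type the log2 fold change was -0.78 (SE 0.16, adjusted p = 0.0413 by limma). With the knockout label over wild type it was -0.67 (adjusted p = 0.110). The call was a narrow one, held in 8 of 19 alternative settings, and it was lost without any of the antibody-labelled libraries (adjusted p = 0.127 to 0.136), without wild-type library 1 (0.0956) or 2 (0.176), and without knockout-labelled library 2 (0.0524) or 3 (0.0532).

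F5 itself read 23838, 23741 and 24964 normalized counts in knockout-labelled and 32837, 30723 and 30028 in antibody-labelled libraries, against 39101, 37020 and 38950 in wild type. The coding gene fell in the knockout-labelled libraries (log2 fold change -0.67, adjusted p = 0.0287 by limma), and stood at -0.30 in the antibody-labelled ones (adjusted p = 0.265). The order of the labelled groups thus differed in the pair: F5 was lowest in knockout-labelled livers, and Gm16548 was at about the same level in both. Its antibody-labelled values lay just under its knockout-labelled ones with no overlap (log2 fold change -0.11, adjusted p = 0.826 by limma). If the libraries did not keep the strand, F5 reads within the overlap could be counted for Gm16548, which was not tested.

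**Figure D3:**
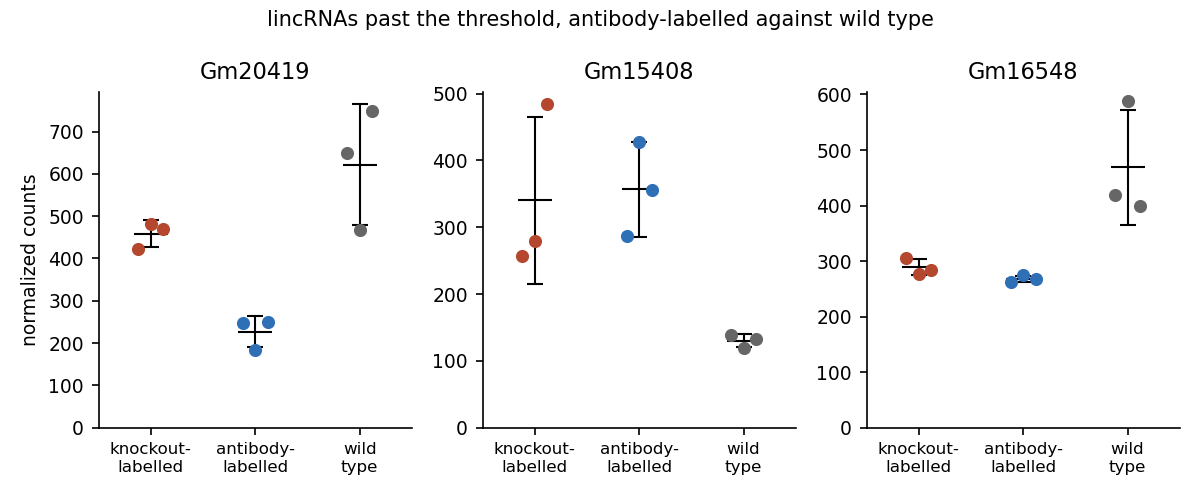
Normalized counts of Gm20419, Gm15408 and Gm16548 in each library (dots) of the knockout-labelled, antibody-labelled and wild-type groups, with the mean (bar) and SD (n = 3). Gm20419 is lowest in the antibody-labelled livers at 185 to 251, Gm15408 is lowest in wild type at 119 to 138, and Gm16548 is highest in wild type at 399 to 588.

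In antibody-labelled against knockout-labelled, 0 of the 107 passed, beside 0.28% of all tested genes. At an unadjusted p under 0.05 there were 17 (15.9%, with 5 higher and 12 lower), beside 13.3% of all tested genes and 17.3% of those with a mean of at least 200. In 20 (18.7%) the groups did not overlap, beside 17.2% of all tested genes and 21.2% of those with a mean of at least 200. The median log2 fold change was -0.05, beside 0.02 over all genes, and for 91 of the 107 the 95% interval lay within 2-fold. A single lincRNA, Gm20419, was past 2-fold, or 0.935% of the set, beside 4.22% of all tested genes.

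Just short of the threshold in antibody-labelled against wild type stood 4933431E20Rik and Gm17491, both described here after their values were seen. 4933431E20Rik lies opposite Gstm5, a glutathione transferase, with starts 392 bp apart. It read 215, 143 and 183 normalized counts in knockout-labelled and 274, 289 and 297 in antibody-labelled libraries, against 181, 165 and 127 in wild type. The antibody-labelled livers stood above all others, at a log2 fold change of 0.87 against wild type. It reached the limit of 200 through that group alone, with means of 287 in antibody-labelled, 180.2 in knockout-labelled and 158 in wild-type libraries, so the difference is given as a description. Gm17491, which lies within the phosphate transporter gene Slc20a2 on the same strand, read 225, 286 and 266 normalized counts in knockout-labelled and 165, 181 and 170 in antibody-labelled libraries, against 257, 287 and 297 in wild type. Here the antibody-labelled livers stood under all others, at -0.70 (SE 0.16, adjusted p = 0.0551 by limma), while Slc20a2 stood at 0.07. Gm17491 reached the limit of 200 through the other groups, with means of 258.7 in knockout-labelled and 280.6 in wild-type libraries. Its antibody-labelled mean was 171.9, so this difference and its test are likewise given as a description.

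Of the 72 tested coding genes that overlap a member, 4 passed in knockout-labelled against wild type, beside 0.155% of all tested genes. Between the 2 labelled groups 0 passed, beside 0.28%. Whether genes that overlap a member pass more often than others was not tested. The 4 were Txnip, F5, Slc7a2 and Pdpr, and of these Txnip and Slc7a2 also passed in antibody-labelled against wild type. In each of these pairs the lincRNA is on the strand opposite the coding gene. Txnip, an arrestin-like protein that binds thioredoxin and limits glucose uptake, read 23271, 28709 and 26370 normalized counts in knockout-labelled and 22173, 19228 and 18714 in antibody-labelled libraries, against 11014, 14357 and 12695 in wild type. It rose in both, by 1.04 (adjusted p = 0.0181) and 0.66 (adjusted p = 0.0306 by limma) on the log2 scale. Its antisense partner Gm15441, described in mouse liver as a target of the fatty acid receptor PPARα, read 3709, 3837 and 1254 normalized counts in knockout-labelled and 2584, 1428 and 1706 in antibody-labelled libraries, against 2434, 2443 and 1819 in wild type. Gm15441 varied widely within the knockout-labelled group and stood at 0.24 and -0.26 (SE 0.44 each), so its direction could not be read, while all 6 Txnip values lay above wild type.

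Slc7a2, a carrier of cationic amino acids, read 31208, 33497 and 33250 normalized counts in knockout-labelled and 26884, 32022 and 29175 in antibody-labelled libraries, against 78666, 52505 and 85537 in wild type, and fell by 1.12 and 1.27 on the log2 scale (adjusted p = 0.0284 and 0.00395 by limma). Gm17475, opposite to it near its start, read 679, 892 and 786 normalized counts in knockout-labelled and 919, 817 and 857 in antibody-labelled libraries, against 1025, 1010 and 1080 in wild type. All 6 values lay under wild type, as for Slc7a2, but the lincRNA's differences of -0.41 and -0.27 were smaller and did not pass (adjusted p = 0.174 and 0.501).

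Pdpr, a regulator of the phosphatase that activates pyruvate dehydrogenase, read 1107, 1498 and 1287 normalized counts in knockout-labelled and 2280, 1776 and 1715 in antibody-labelled libraries, against 2358, 2203 and 2285 in wild type. It fell in the knockout-labelled livers (log2 fold change -0.82, adjusted p = 0.0489 by limma). Its partner 9430091E24Rik stood at -0.23 (adjusted p = 0.549), with 926, 1238 and 1470 normalized counts in knockout-labelled, 1360, 1148 and 1242 in antibody-labelled and 1343, 1548 and 1321 in wild-type libraries. Counting also the nearest genes within 100 kb, 232 coding genes beside members were tested. Of them 5 passed in knockout-labelled against wild type, 2 higher and 3 lower, beside 0.155% of all tested genes. Nearby genes that do not overlap a member and passed in a contrast against wild type were Csrp3, a muscle LIM protein near Gm2788, higher in both (0.85 and 0.61, adjusted p = 0.0181 and 0.0134), and Fam187b near Gm4673, lower in antibody-labelled livers (-1.26, adjusted p = 0.0306). Gm2788 stood at -0.01 and 0.30 and Gm4673 at 0.30 and 0.17. The 4 overlapping pairs described were chosen by the coding gene's test. In 3 of them, F5, Slc7a2 and Pdpr, the lincRNA's fold changes had the same sign as those of its partner. Those of 9430091E24Rik were -0.23 and -0.17 (SE 0.16 each), so its direction is not certain. If the libraries did not keep the strand, reads of the coding gene could be counted for the lincRNA in such pairs, which was not tested.

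**Figure D4:**
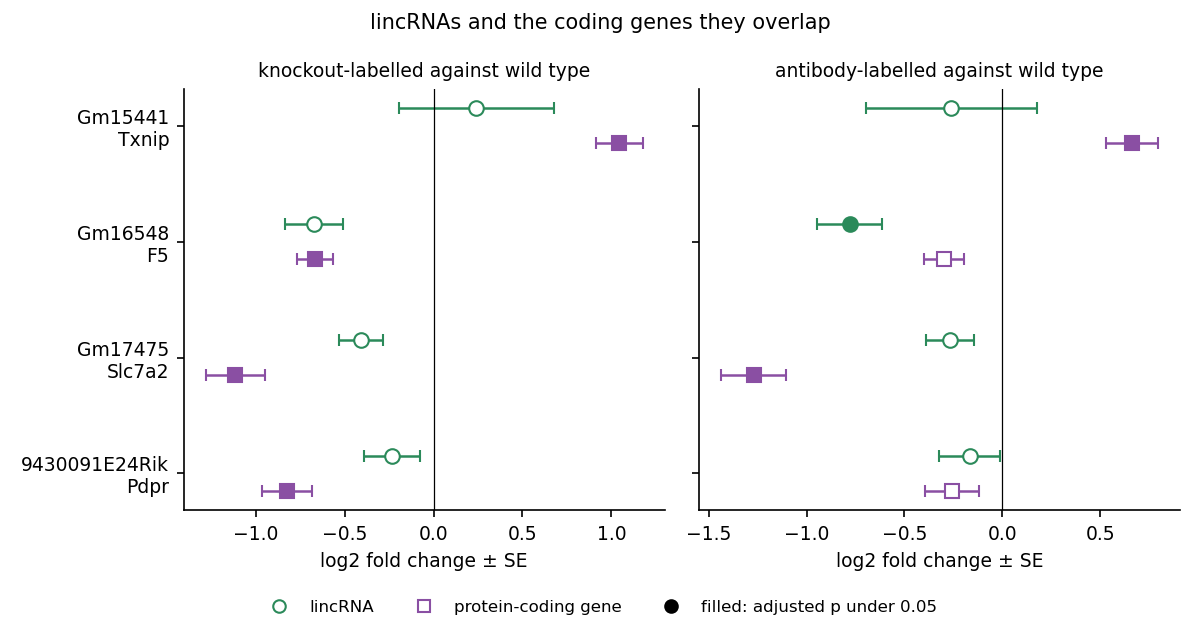
Log2 fold change ± SE of 4 lincRNAs (circles) and of the coding gene that each overlaps on the opposite strand (squares), in knockout-labelled (left) and antibody-labelled (right) against wild type. Filled symbols passed at an adjusted p under 0.05: the coding gene did in 4 pairs on the left and 2 on the right, and the lincRNA in the Gm16548 pair alone, on the right.

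The snoRNA hosts form a group with a role of its own. In them the introns carry snoRNAs, which guide chemical modification of ribosomal and other RNAs, and the spliced host RNA is often removed by nonsense-mediated decay. Snhg1 holds 8 annotated snoRNA genes within its span, Snhg12 holds 4, 2410006H16Rik and 9430008C03Rik (now Snhg17) hold 3 each, Snhg5 holds 2 and 2410004N09Rik holds 1. Snhg1 read 1084, 696 and 963 normalized counts in knockout-labelled and 711, 877 and 811 in antibody-labelled libraries, against 382, 465 and 811 in wild type. Snhg5 read 501, 416 and 558 normalized counts in knockout-labelled and 412, 475 and 500 in antibody-labelled libraries, against 225, 252 and 553 in wild type. For both, wild-type libraries 1 and 2 lay under all other livers and wild-type library 3 lay among them.

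Summed over the 6 hosts, the values were 4826, 3736 and 4690 normalized counts in knockout-labelled and 3572, 4563 and 3923 in antibody-labelled libraries, against 2382, 3044 and 4417 in wild type. Wild-type library 1 was the lowest of the 9 in 5 of the 6 hosts, and the exception, 9430008C03Rik, was lowest in knockout-labelled library 1. None of the 6 passed in any contrast by limma, and 3, 1 and 0 had an unadjusted p under 0.05, beside 13.8%, 10.3% and 13.3% of all tested genes. Snhg1 stood at 0.78 in knockout-labelled and 0.60 in antibody-labelled against wild type (SE 0.25 each, adjusted p = 0.208 and 0.429 by limma). Without wild-type library 3, which lay among the other groups, Snhg1 and Snhg5 passed in knockout-labelled against wild type (limma, adjusted p = 0.0486 and 0.0388). Snhg5 then also passed in antibody-labelled against wild type (adjusted p = 0.0313). In that setting 80 and 219 of all tested genes passed in the 2 contrasts, against 31 and 268 with all libraries. Of 10 nonsense-mediated decay factors and 16 subunits and adaptors of the nuclear RNA exosome, 0 passed in any contrast (unadjusted, 2, 0 and 1 of the first list and 3, 0 and 3 of the second).

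**Figure D5:**
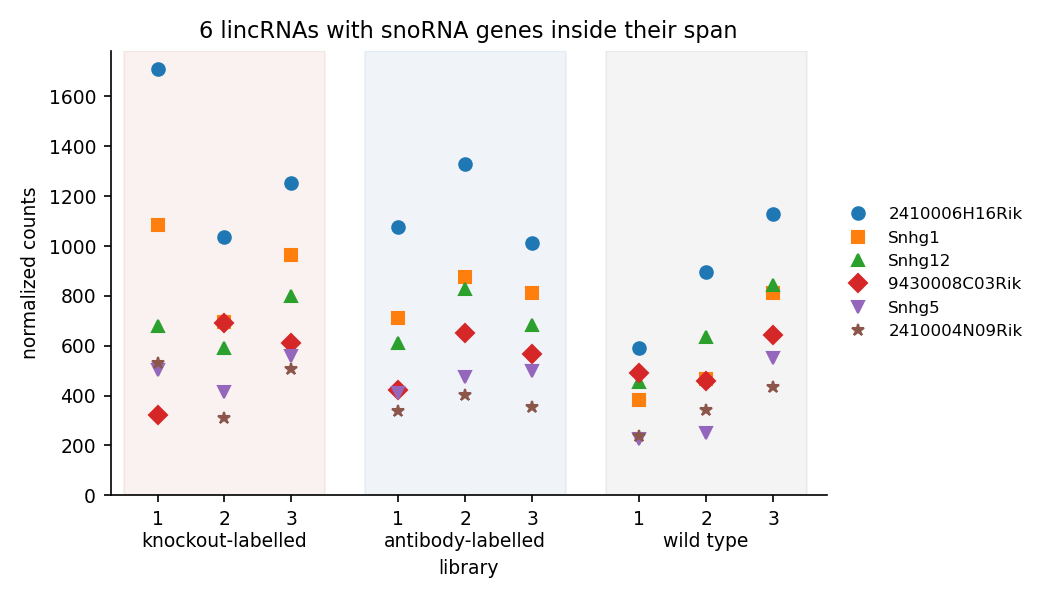
Normalized counts of the 6 lincRNAs with snoRNA genes inside their span, in each library of the knockout-labelled, antibody-labelled and wild-type groups. Wild-type library 1 holds the lowest value of all 9 libraries for each host but 9430008C03Rik, and wild-type library 3 lies within the range of the other groups for each host but Snhg12, where it is the highest of all.

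Members also hold 7 annotated microRNA genes within their spans, and the mature sequences are shown for A330023F24Rik and E130102H24Rik, since poly(A) libraries read the host and not the microRNA itself. Sequences are from RefSeq (GRCm38.p6), with the seed, bases 2 to 8, in capitals.
mmu-miR-29b-3p: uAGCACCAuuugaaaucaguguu
mmu-miR-29c-3p: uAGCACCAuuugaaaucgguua
mmu-miR-101a-3p: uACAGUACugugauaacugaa
The miR-29 pair share the seed AGCACCA and lie within A330023F24Rik on chromosome 1. That host read 132, 212 and 281 normalized counts in knockout-labelled, 150, 270 and 210 in antibody-labelled and 217, 144 and 290 in wild-type libraries, with no order between the groups (log2 fold change -0.07 and -0.03 against wild type). E130102H24Rik, which holds the gene of miR-101a, read 235, 450 and 307 normalized counts in knockout-labelled, 307, 362 and 400 in antibody-labelled and 348, 214 and 426 in wild-type libraries, and stood at 0.01 and 0.16. Of 10 genes of microRNA processing, 0 passed in any contrast (unadjusted, 4, 1 and 4).

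Promoter windows were given for 64 of the 107. Motifs were searched on both strands. The full cAMP response element TGACGTCA, the site of CREB, was in 5 windows, or 7.81%, beside 1.88% of 27025 genes with a window. Its short form TGACG, which also counts inside the full one, was in 23 (35.9%, beside 21.02%). The E-box CACGTG was in 9 (14.1%, beside 7.24%), TATAAA was in 5 (7.81%, beside 14.2%), and TTGCGCAA, a site of C/EBP factors, was in 0, beside 0.185%. The windows are a description, and a motif's letters do not show that a factor binds there. The windows with the full element belong to 6030443J06Rik, 9430091E24Rik, 2900053A13Rik, 1300002E11Rik and B230354K17Rik. They are shown for 1300002E11Rik, which lies 6503 bp from Ehhadh, a peroxisomal enzyme of fatty acid oxidation, for 2900053A13Rik, the Pet100 transcript, and for 9430091E24Rik, the partner of Pdpr. The windows are chr16:21794097-21794396, plus strand, then chr8:3621301-3621600, plus strand, and chr8:111145449-111145748, minus strand, all in GRCm38.p6. Capitals mark TGACGTCA, TGACG or its complement CGTCA, and CACGTG.
1300002E11Rik: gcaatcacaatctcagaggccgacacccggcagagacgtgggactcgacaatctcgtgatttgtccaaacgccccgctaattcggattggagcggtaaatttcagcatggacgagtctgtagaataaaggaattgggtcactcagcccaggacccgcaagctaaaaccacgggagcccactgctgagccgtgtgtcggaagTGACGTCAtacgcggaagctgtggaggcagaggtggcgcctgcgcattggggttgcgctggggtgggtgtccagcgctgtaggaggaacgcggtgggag
2900053A13Rik: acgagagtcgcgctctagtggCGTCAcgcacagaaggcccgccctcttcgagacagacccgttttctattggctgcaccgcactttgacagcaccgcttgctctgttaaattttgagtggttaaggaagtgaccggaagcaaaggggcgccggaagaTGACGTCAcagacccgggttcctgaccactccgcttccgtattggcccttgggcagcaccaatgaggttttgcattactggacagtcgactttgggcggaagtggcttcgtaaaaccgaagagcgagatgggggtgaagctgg
9430091E24Rik: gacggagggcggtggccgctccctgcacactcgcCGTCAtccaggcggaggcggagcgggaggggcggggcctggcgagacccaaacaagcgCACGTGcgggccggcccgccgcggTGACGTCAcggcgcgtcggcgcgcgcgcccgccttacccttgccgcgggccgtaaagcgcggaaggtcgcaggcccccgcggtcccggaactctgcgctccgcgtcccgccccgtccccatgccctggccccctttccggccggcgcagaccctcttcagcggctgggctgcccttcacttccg
None of the 5 passed in any contrast by limma, and 1, 0 and 1 had an unadjusted p under 0.05. 1300002E11Rik read 1031, 1320 and 877 normalized counts in knockout-labelled, 704, 692 and 893 in antibody-labelled and 784, 731 and 923 in wild-type libraries, at 0.39 and -0.09 on the log2 scale against wild type (adjusted p = 0.326 and 0.938 by limma). 2900053A13Rik read 1132, 577 and 768 normalized counts in knockout-labelled, 570, 636 and 592 in antibody-labelled and 594, 631 and 564 in wild-type libraries, with its highest value in the shallow knockout-labelled library 1. B230354K17Rik was steady, at 229 to 304 normalized counts in knockout-labelled, 283 to 334 in antibody-labelled and 296 to 300.1 in wild-type libraries.

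Of 42 known long noncoding RNAs found in the table, 10 are in the set, 14 are lincRNAs under the level of 200 and 18 carry another gene type. Of the 37 tested, 0 passed in any contrast by limma, and 7, 6 and 5 had an unadjusted p under 0.05. In antibody-labelled against wild type, 2.8% of the set passed, against 0.708% of the other 848 tested lincRNAs, of which 4 were higher and 2 lower. Both shares rest on few genes, and the first in part on Gm15408, which the selection took in through the groups where it is high. The difference between the shares was not tested. The other lincRNAs are lower in level, and among all tested genes with a mean of at least 200 the share was 1.82%.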

How the data were processed

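Poly(A)-selected RNA of 9 mouse livers was sequenced with 50 M (mega) paired-end reads of 50 bp per library, per the labels. Per the submitters' processing notes, FastQC, SAMtools and TopHat2 2.0 were used, with genome build mm9. No source used here gives the counting and scaling steps. Per gene and library, the authors deposited a normalized signal, called normalized counts here, with a floor of 1. Dividing by the estimated worth of 1 read gave whole reads within 0.01 for only 40.8% to 45.8% of low values in a library, so no count model was used. Estimated reads per library were 10.99 to 30.1 M, and the columns summed to 42.4 to 52.1 M.

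Values were analysed as log2(value + 1), a scale that understates changes of low genes. Genes above the floor in at least 3 of 9 libraries were tested (20029, of which 955 were lincRNAs). One limma model (version 3.58.1, R 4.3.3) took in all 9 libraries, with group as its factor, a trended variance prior and robust moderation. P-values are two-sided, adjusted by Benjamini-Hochberg over all tested genes, with a threshold of 0.05. No source says how the replicates of a group were housed or processed, and p-values measure the spread between these livers. A permutation of 3 libraries against 3 cannot give a p under 0.1, so none was run.

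Members were named when among the 8 highest means, past the threshold, on the list of known long noncoding RNAs or next to the limit of 200. Hosts of snoRNAs and microRNAs, partners of changed coding genes, members with a full cAMP response element, the extremes of spread and fold, and members just short of the threshold were added after their values were seen. Members and lists were chosen with earlier results of these data known. Table coordinates are mm9; types and exon lengths are GENCODE M21, and sequences are RefSeq (GRCm38.p6). The result of 1 coding gene that overlaps a member is not reported here.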

Additional observations from a re-analysis of the deposited data

How the results depend on the processing

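Over 19 alternative settings, the fold changes of the 22 named lincRNAs kept their side of the threshold in 1226 of 1254 comparisons. They moved past it in 14 and lost it in 14, and no called fold change reversed. Most of these comparisons are of fold changes that did not pass in the main fit. Of the 3 calls, Gm20419 held in 19, Gm15408 in 16 and Gm16548 in 8 of the 19 settings. In knockout-labelled against wild type the count of lincRNAs past the threshold was 0, and it was 1 with no filter on low values, 1 with a filter above 10 and 1 with quantile normalization, each time Gm15408. Leaving out 1 library gave 0 to 2. In antibody-labelled against wild type the count was 3, and it was 5 with a filter above 10, 1 without trend and robust estimation and 11 with library weights. Leaving out 1 library gave 1 to 5. In antibody-labelled against knockout-labelled the count was 0, and it was 1 with no filter and 1 with a filter above 10, each time Gm20419, with 0 when any 1 library was left out. Where the cause of such a change is not the set of genes or libraries itself, the cause was not tested. Among all tested genes the counts in those 3 contrasts were 31, 268 and 56. They were 0, 71 and 1 without trend and robust estimation, 23, 666 and 19 with library weights, 65, 219 and 64 with no filter, and 15, 363 and 16 with the 6 libraries of the compared groups. With a pseudocount of 10 the last count was 23, and with median ratio scaling it was 29. Leaving out 1 library gave 4 to 145, 105 to 290 and 1 to 82. Counting the 53 lincRNAs that overlap no protein-coding gene, an alternative chosen after seeing the data, left 0, 2 and 0.

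Same-numbered libraries did not deviate together (correlations of their deviations from -0.136 to 0.126), and libraries of different number spanned about the same range (-0.124 to 0.136). With 3 libraries per group this cannot decide whether the numbers pair the mice, and no source says how the replicates were housed or processed. With the replicate number as a block, 0, 2 and 0 lincRNAs passed, and 38, 251 and 45 of all tested genes.

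Depth limits these statements: knockout-labelled library 1 held 10.99 M (mega) of estimated reads, 1 read there was worth 4.74 normalized counts, and a fold change of a lincRNA had a median SE of 0.18.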

Other observations

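Of 13 genes of the imprinted gene network, 0 passed in any contrast by limma (2, 2 and 1 at an unadjusted p under 0.05), with sums of 80920 to 104000 normalized counts in knockout-labelled, 78510 to 87370 in antibody-labelled and 84570 to 104200 in wild-type libraries. The lincRNAs Meg3 and Rian, maternally expressed RNAs of that network, were under the selection level, at means of 40.8 and 10.5 normalized counts. Among lincRNAs too low for the set, Gm11419 had 52.3, 138 and 47.2 normalized counts in knockout-labelled and 140, 281 and 197 in antibody-labelled libraries, against 24.7, 26.3 and 43.5 in wild type (antibody over wild type at 2.66 on the log2 scale, with an SE of 0.41 and adjusted p = 0.0089 by limma). 4933421A08Rik had 9.49, 24.9 and 9.51 normalized counts in knockout-labelled and 5.87, 1 and 1.75 in antibody-labelled libraries, against 93.8, 58.7 and 22.7 in wild type. Its antibody over wild type value was -3.93 on the log2 scale (SE 0.62, adjusted p = 0.00979), with an antibody-labelled library listed at the floor.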
